A study of Mus musculus with 2 samples.

Results

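The genes described are 10 members of the prostaglandin and leukotriene pathways, of 27998 genes listed for the series, and all 10 were found by symbol. They are Ptgs1, Ptgs2, Ptges, Ptger2, Ptger4, Hpgd, Hpgds, Alox5, Alox5ap and Ltc4s. Their levels were followed through the cell lineages of dorsal skin from wild type C57BL/6 mice aged 2 months, described as female. In the IMQ group the skin had received topical imiquimod (IMQ) daily for 5 days, which activates Toll-like receptor signalling and gives a psoriasis-like dermatitis. The control group had no such treatment given in its labels, and both groups shared the strain, age and digestion with collagenase D and DNase. Each group was 1 droplet-based single-cell library, and how many animals went into each is not stated. Treatment and library therefore cannot be told apart, the treatment could not be tested, and each difference is one between these 2 libraries.

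Prostaglandins and leukotrienes are lipid mediators made from arachidonic acid that phospholipases release from membranes. The cyclooxygenases Ptgs1 and Ptgs2 make the shared prostaglandin precursor, which Ptges turns into prostaglandin E2 and Hpgds into prostaglandin D2, and Hpgd inactivates prostaglandins. Prostaglandin E2 acts on receptors that include Ptger2 and Ptger4. In the other branch, 5-lipoxygenase (Alox5), aided by its membrane partner Alox5ap, makes leukotriene A4, which Ltc4s joins to glutathione to give leukotriene C4. In skin these mediators are known for roles in vascular leak, leukocyte recruitment and itch.

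Of 9414 IMQ and 10857 control barcodes, 8499 IMQ and 10297 control cells had at least 200 genes and at most 10% mitochondrial UMIs and were kept, with a median of 12650 UMIs in IMQ and 9596 UMIs in control cells. Marker genes placed 92.6% of IMQ and 92.5% of control cells in 1 of 17 lineages. Comparison was limited to the 11 lineages in which both libraries had 30 or more cells, and neutrophils were not among them because 271 IMQ and 5 control cells were found. Levels are given as CPM, the UMIs of a gene summed over a lineage in 1 library and scaled to 1000000 UMIs of that lineage. Parentheses after a ratio hold its exact conditional 95% interval, which covers counting error only, since cells of 1 library are not replicates. A gene counts as measured where the libraries together held 20 UMIs or more, and is called higher or lower at a 2-fold ratio or more with an interval that leaves out equality. Libraries shared 23 barcodes, 20 of them among the kept cells. Scrublet marked 110 IMQ and 422 control cells as doublets, which were kept.

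The 2 cyclooxygenase genes are shown by the window around their start sites, because both make the shared precursor and the cells that held them differed. Both windows come from RefSeq on GRCm38.p6 and run from 250 bases before to 50 bases after the annotated start on the plus strand, at chr1:150099781-150100080 for Ptgs2 and chr2:36230176-36230475 for Ptgs1. Capitals mark matches on either strand to ACGTCA (cyclic AMP response element type), CACGTG (E-box type) and TTGCGCAA (C/EBP type), and the first 2 overlap in Ptgs2.
Ptgs2: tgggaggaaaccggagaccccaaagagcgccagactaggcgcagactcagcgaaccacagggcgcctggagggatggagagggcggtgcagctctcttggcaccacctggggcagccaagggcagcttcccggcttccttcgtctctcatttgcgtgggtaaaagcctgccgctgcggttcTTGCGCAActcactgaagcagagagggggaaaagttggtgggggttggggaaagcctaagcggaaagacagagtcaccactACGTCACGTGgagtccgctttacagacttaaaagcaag
Ptgs1: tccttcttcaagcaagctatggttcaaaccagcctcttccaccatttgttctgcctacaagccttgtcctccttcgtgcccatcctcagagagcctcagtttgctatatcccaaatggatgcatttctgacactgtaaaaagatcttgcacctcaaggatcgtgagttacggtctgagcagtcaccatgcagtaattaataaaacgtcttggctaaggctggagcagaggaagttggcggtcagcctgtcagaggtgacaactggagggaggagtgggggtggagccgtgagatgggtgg
The Ptgs2 window held 1 match to each of the 3 motifs, and these letters were not in the Ptgs1 window. Of 32851 windows of this length, 7.51% held ACGTCA, 7.15% held CACGTG and 0.183% held TTGCGCAA. These motifs were set by hand and not found by a search, so the matches are a description and not a test. In Ptgs2, ACGTCA and CACGTG began 12 and 16 bases after the annotated start, and TTGCGCAA at offset -69. Another motif, TATAAA, was in 13.6% of all windows and in neither cyclooxygenase window. Windows were listed for 9 of the 10 genes, and 1 of the 9, Hpgd, held TATAAA.

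Over all kept cells Alox5ap, Alox5 and Ptger2 were higher in the IMQ library, and Ptgs1 and Hpgd were lower. Alox5ap stood at 56.6 CPM in IMQ and 9.19 CPM in control cells, a ratio of 6.15 (5.78 to 6.56). Alox5 was at 1.22 CPM in IMQ and 0.592 CPM in control cells, and Ptger2 at 1.09 CPM in IMQ and 0.222 CPM in control cells. Ptgs1 was at 34.7 CPM in IMQ and 83.6 CPM in control cells, and Hpgd at 50.5 CPM in IMQ and 106 CPM in control cells. So 3 of the 10 genes were higher and 2 were lower, against 13.1% higher and 5.96% lower among the 16906 genes measured. The median log2 ratio was -0.23 over the 10 genes and 0.16 over all measured genes. When ratios were set relative to that median, Ptgs2 reached a log2 ratio of -1.07 and was also lower, and Alox5, at 0.88, no longer passed 2-fold.

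**Figure D1:**
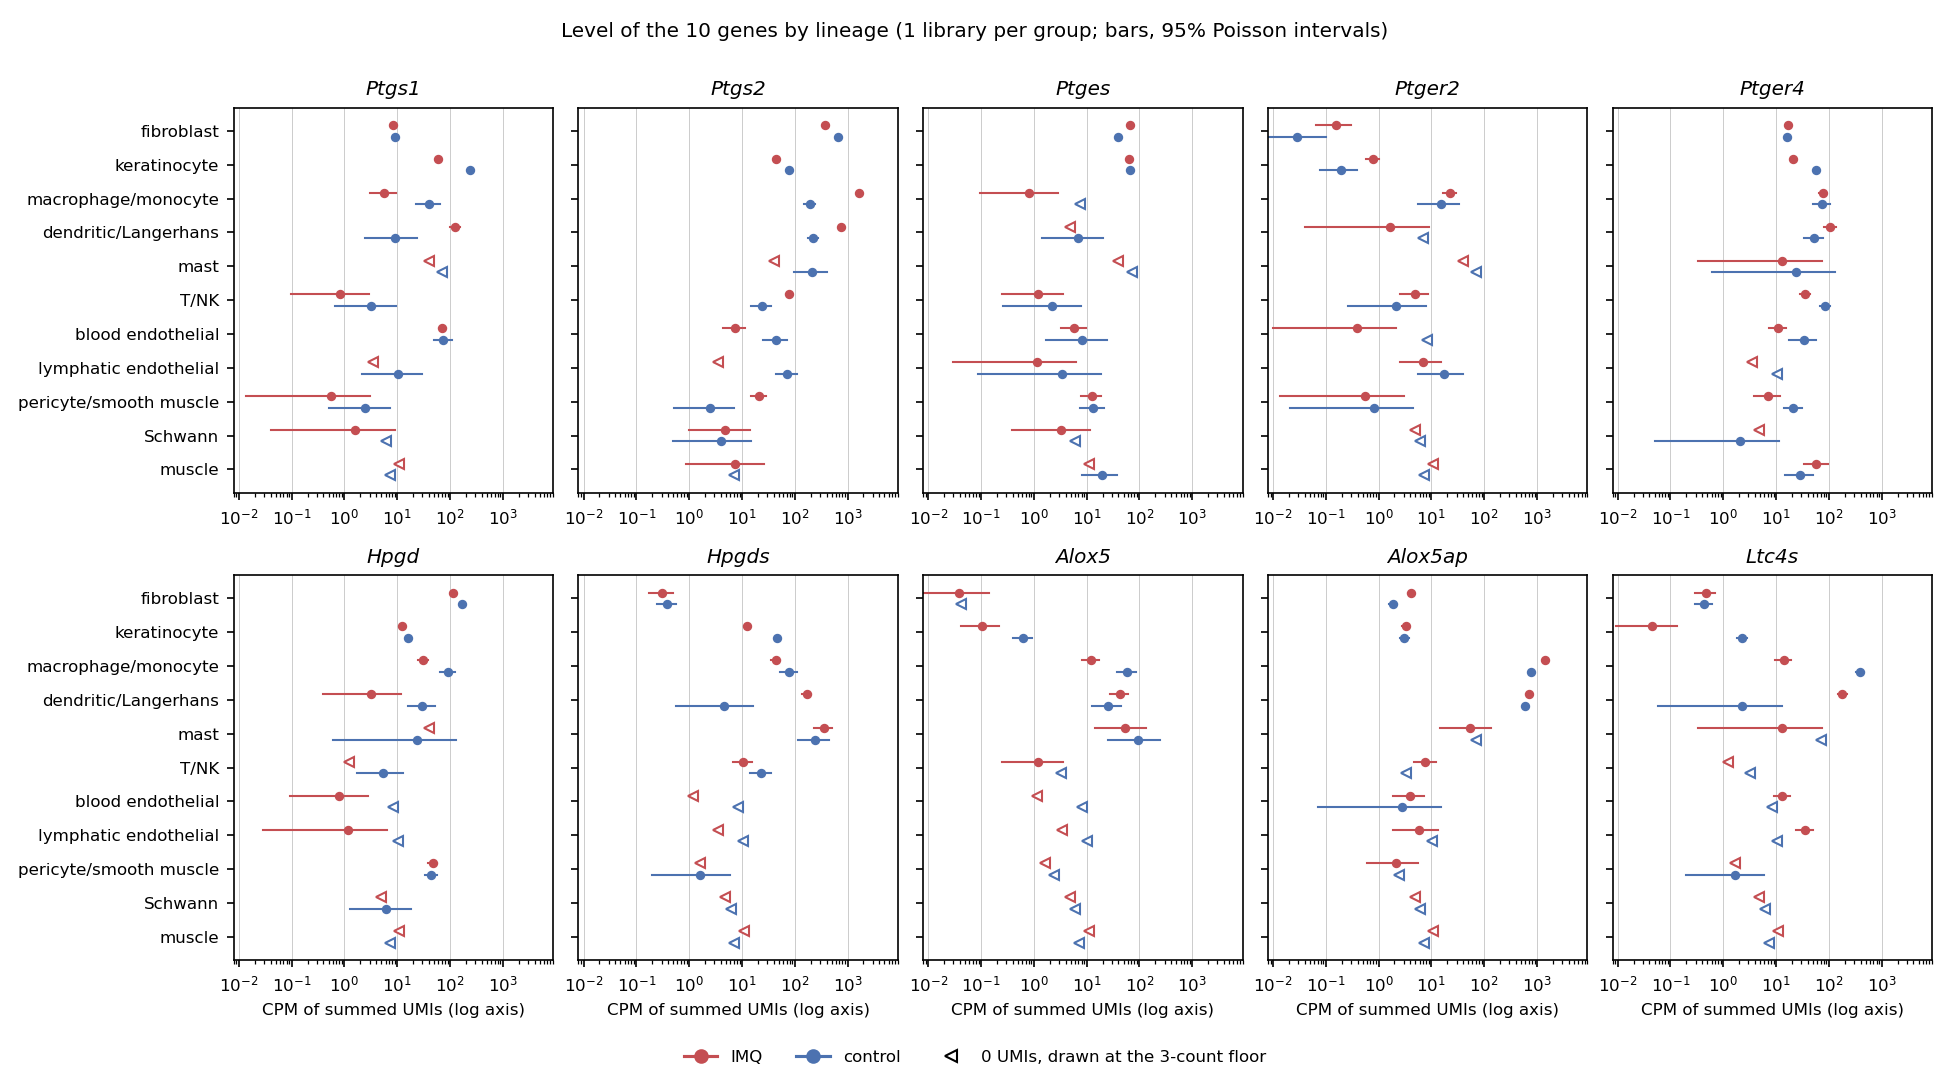
Level of each of the 10 genes (CPM of summed UMIs, log axis) in the 11 compared lineages, with IMQ in red above control in blue, bars as 95% Poisson intervals and open triangles at the 3-count floor where no UMI was found. Ptgs2 in macrophages and monocytes lies at 1618 CPM in IMQ and 192 CPM in control cells, whereas Ptgs1 in keratinocytes lies at 60.2 CPM in IMQ and 242 CPM in control cells.

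The cells that held each gene differed between the libraries. Fibroblasts held 62.3% of the Ptgs2 UMIs in the IMQ library and 92.2% in the control library, while macrophages and monocytes held 12.9% in the IMQ library and 0.148% in the control library. Keratinocytes held most Ptgs1, with 82.1% in the IMQ and 87.8% in the control library. For Alox5ap, macrophages and monocytes held 45.3% in the IMQ and 27.7% in the control library, and neutrophils held 26.1% in the IMQ and 1.25% in the control library. Lineage makeup moved with these totals, as fibroblasts were 3706 IMQ and 6961 control cells and macrophages and monocytes were 411 IMQ and 81 control cells. With each lineage held at its control level and weighted by the IMQ makeup, Alox5ap would have been at 33.2 CPM, between the observed 56.6 CPM in IMQ and 9.19 CPM in control cells. The same weighting gave 123.7 CPM for Ptgs1, above its control level of 83.6 CPM, while the observed IMQ level was 34.7 CPM. For Alox5 it gave 1.56 CPM, above the observed 1.22 CPM in IMQ and 0.592 CPM in control cells. Hpgd came to 73.7 CPM and Ptger2 to 0.55 CPM, both between their observed levels. The part of the lineage makeup in these differences was not tested. The levels of neutrophils and basophils in that calculation rested on 5 and 3 control cells.

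**Figure D2:**
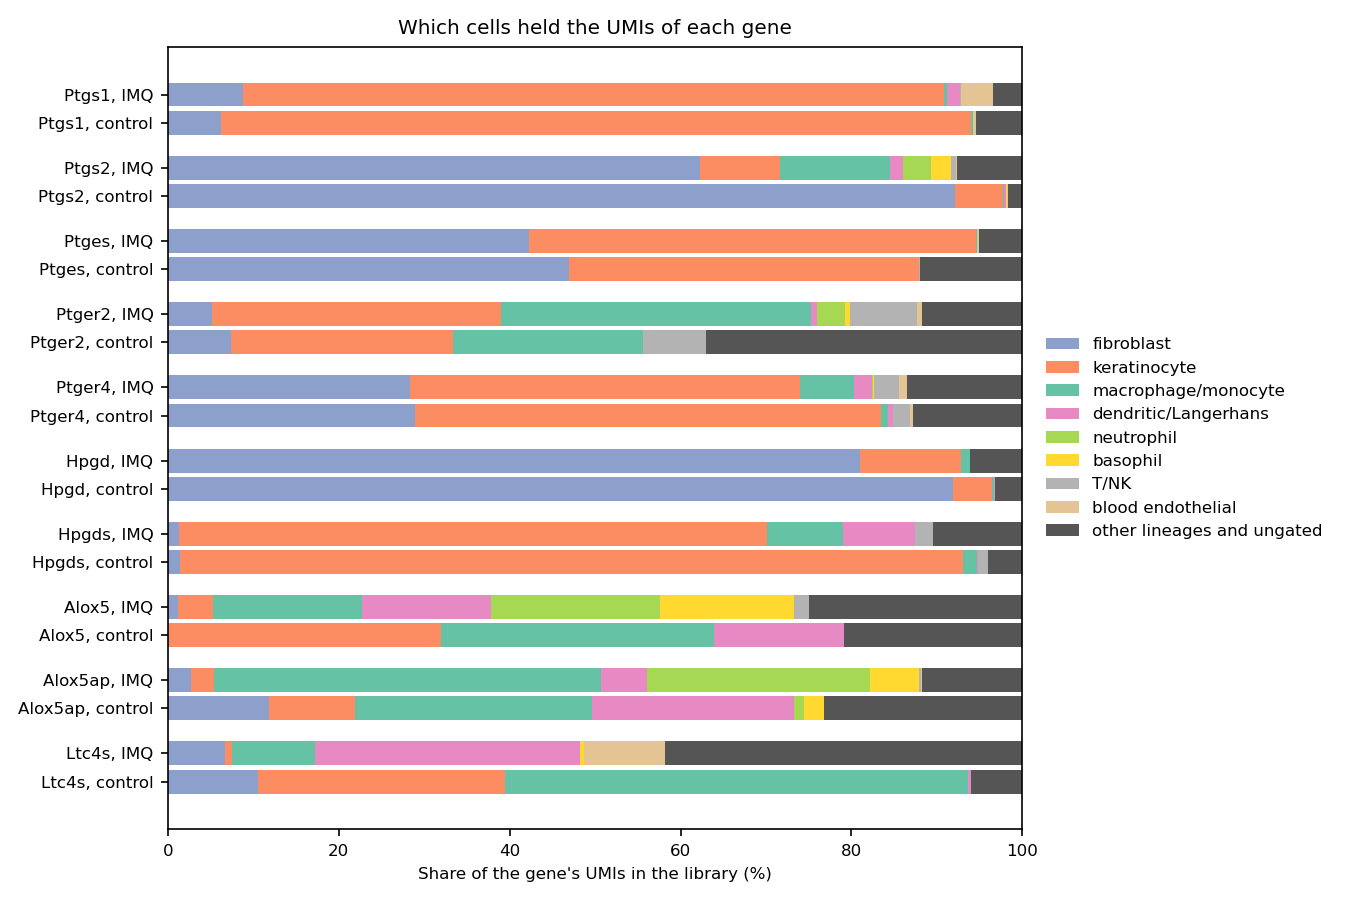
Share of each gene's UMIs (%) found in the larger lineages, with the rest and ungated cells in dark grey and the IMQ bar above the control bar for every gene. Fibroblasts make up 62.3% of the Ptgs2 bar in IMQ and 92.2% in control, and neutrophils appear in the Alox5ap bar at 26.1% in IMQ and 1.25% in control.

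Over the 11 lineages, 49 of 110 gene and lineage pairs were measured, of which 10 were higher, 15 were lower and 24 were neither. In keratinocytes 1 of 10 genes was higher and 5 were lower, against 11.3% higher and 11.6% lower among all genes measured there. In macrophages and monocytes 1 of 9 was higher and 4 were lower, against 5.71% higher and 9.72% lower. In dendritic and Langerhans cells 4 of 7 were higher and 0 lower, against 7.83% higher and 4.61% lower. In fibroblasts 1 of 8 was higher and 0 lower, against 11.4% higher and 4.77% lower. T and NK lymphocytes had 1 higher and 2 lower of 3, against 7.4% higher and 6.43% lower. Blood endothelial cells had 0 higher and 2 lower of 4, against 12% higher and 7.33% lower, and lymphatic endothelial cells had 1 higher and 1 lower of 2, against 4.66% higher and 3.14% lower. Pericytes and smooth muscle cells had 1 higher and 1 lower of 4, against 14.3% higher and 9.94% lower. Mast cells and muscle cells had 1 measured gene each and none called, against 3.3% higher and 7.81% lower in mast cells and 5.51% higher and 10.2% lower in muscle cells. None was measured in Schwann cells, where 3.41% of genes were higher and 2.15% lower.

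**Figure D3:**
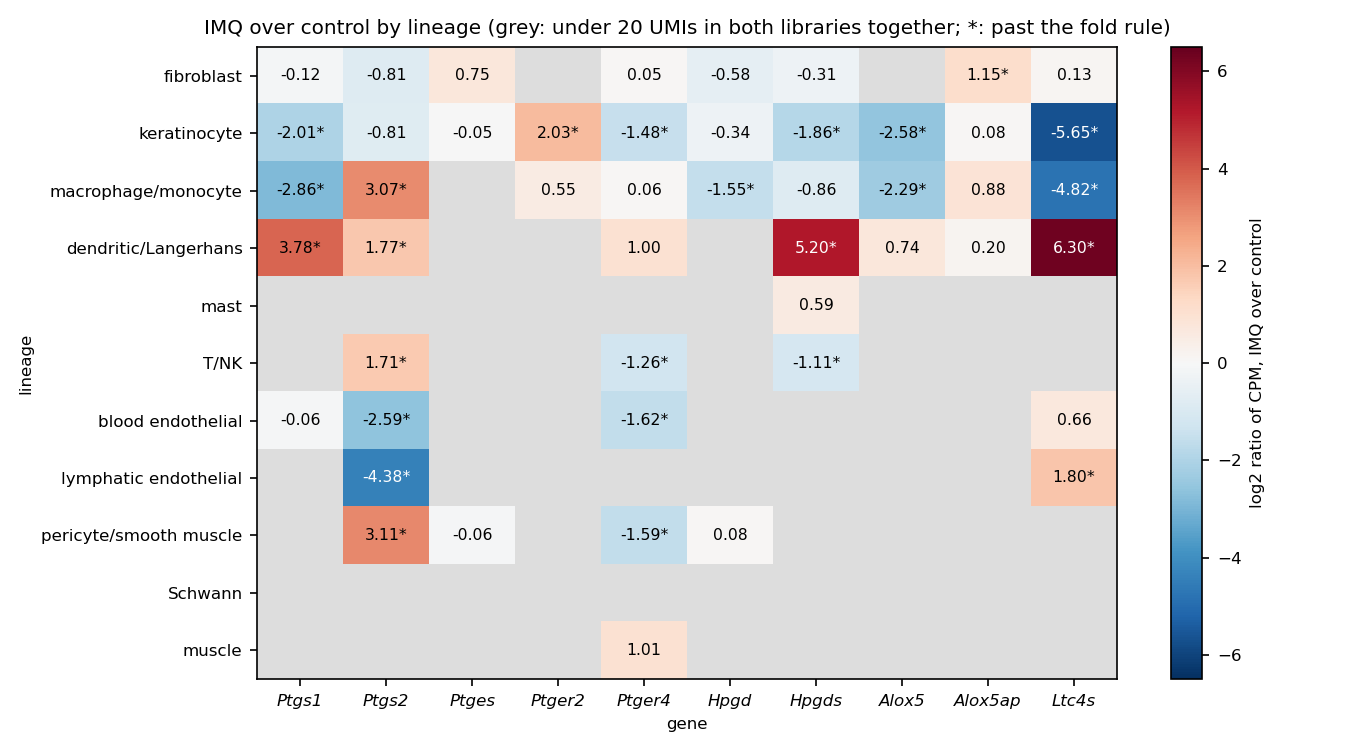
Log2 ratio of CPM, IMQ over control, for each gene (columns) and lineage (rows), with grey where fewer than 20 UMIs were found in both libraries together and an asterisk where the 2-fold rule was passed. Red cells such as Ptgs2 in macrophages and monocytes (3.07) are higher in IMQ, and blue cells such as Ltc4s in the same lineage (-4.82) are lower.

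Ptgs2, the inducible cyclooxygenase (chromosome 1, 150100031 to 150108227, plus strand), was higher in IMQ macrophages and monocytes. It stood at 1618 CPM on 4069 UMIs in IMQ and 192 CPM on 76 UMIs in control cells, a ratio of 8.41 (6.70 to 10.7). With each cell thinned to 2000 UMIs, which left 340 IMQ and 70 control cells, 49.4% of IMQ and 11.4% of control cells held a Ptgs2 UMI, and without thinning the shares were 52.6% in IMQ and 14.8% in control cells. Pericytes and smooth muscle cells, which had few Ptgs2 UMIs, gave thinned shares of 1.94% in IMQ and 0.465% in control cells. In macrophages and monocytes, without the cell with most Ptgs2 UMIs in each library, the log2 ratio was 3.65, against 3.07 with it.

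Within the macrophage and monocyte lineage, C1q macrophages passed 2-fold and monocytes did not, and their shares of the cells differed between the libraries. Cells gated as C1q macrophages, the resident type, had 584 CPM of Ptgs2 on 485 UMIs in 98 IMQ cells and 10.8 CPM on 3 UMIs in 60 control cells, a ratio of 54.2 (18.4 to 264). Cells gated as monocytes had 2191 CPM in 231 IMQ cells and 1230 CPM in 9 control cells, a ratio of 1.78 (1.41 to 2.29) that missed 2-fold. The monocyte subset was 231 of 411 IMQ cells and 9 of 81 control cells, and it held 75.9% of the lineage's Ptgs2 UMIs in the IMQ and 92.1% in the control library. Myeloid cells too few for comparison also held the gene. Neutrophils had 1153 CPM in 271 IMQ cells and 4385 CPM on 41 UMIs in 5 control cells, and basophils 3470 CPM in 49 IMQ cells and 4217 CPM on 50 UMIs in 3 control cells.

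In fibroblasts Ptgs2 was at 379 CPM in IMQ and 665 CPM in control cells, a ratio of 0.569 (0.560 to 0.579) that missed 2-fold. The median log2 ratio of all genes in fibroblasts was 0.26, and relative to it Ptgs2 stood at -1.08, past 2-fold. The fullest cluster differed, with 24.7% of IMQ fibroblasts in cluster 4 and 28.7% of control fibroblasts in cluster 30, but 72.8% of IMQ and 52.5% of control fibroblasts were in 7 clusters that held 30 or more cells of each. In those shared clusters the log2 ratio of Ptgs2 was -1.86, past 2-fold, against -0.81 in the whole lineage. Fibroblast subsets went opposite ways. In Pi16-type fibroblasts, progenitor-type cells marked by Pi16 and Dpp4, Ptgs2 was at 609 CPM in 1543 IMQ cells and 1990 CPM in 2417 control cells, a ratio of 0.306 (0.3001 to 0.3122). In fibroblasts given to no subset it was at 245 CPM in 1415 IMQ cells and 65.5 CPM in 3421 control cells, a ratio of 3.73 (3.56 to 3.92). Perivascular-type fibroblasts had 198 CPM in IMQ and 186 CPM in control cells. Pi16-type cells thus held 65.5% of the fibroblast Ptgs2 UMIs in the IMQ library and 91.6% in the control library.

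Ptgs2 was at a lower level in IMQ cells in 5 of the 7 shared clusters and at a higher level in 2. Cluster 16 had 1119 CPM of Ptgs2 in 271 IMQ cells and 2732 CPM in 1517 control cells, and cluster 2 had 1035 CPM in 499 IMQ cells and 2749 CPM in 74 control cells. Cluster 5 went the other way, with 351 CPM in 320 IMQ cells and 90.3 CPM in 558 control cells, as did cluster 1, with 81.6 CPM in 219 IMQ cells and 34.4 CPM in 164 control cells. Ptgs2 is also an immediate early gene, and 10 other immediate early genes, chosen after the values were seen, were summed beside it. In Pi16-type fibroblasts they summed to 24230 CPM in IMQ and 13990 CPM in control cells, a ratio of 1.73, and 8 of the 10 were above and 2 below their control level. The 2 were Fosb, at a ratio of 0.738, and Nr4a1, at 0.992. Their part in the result was not tested.

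**Figure D4:**
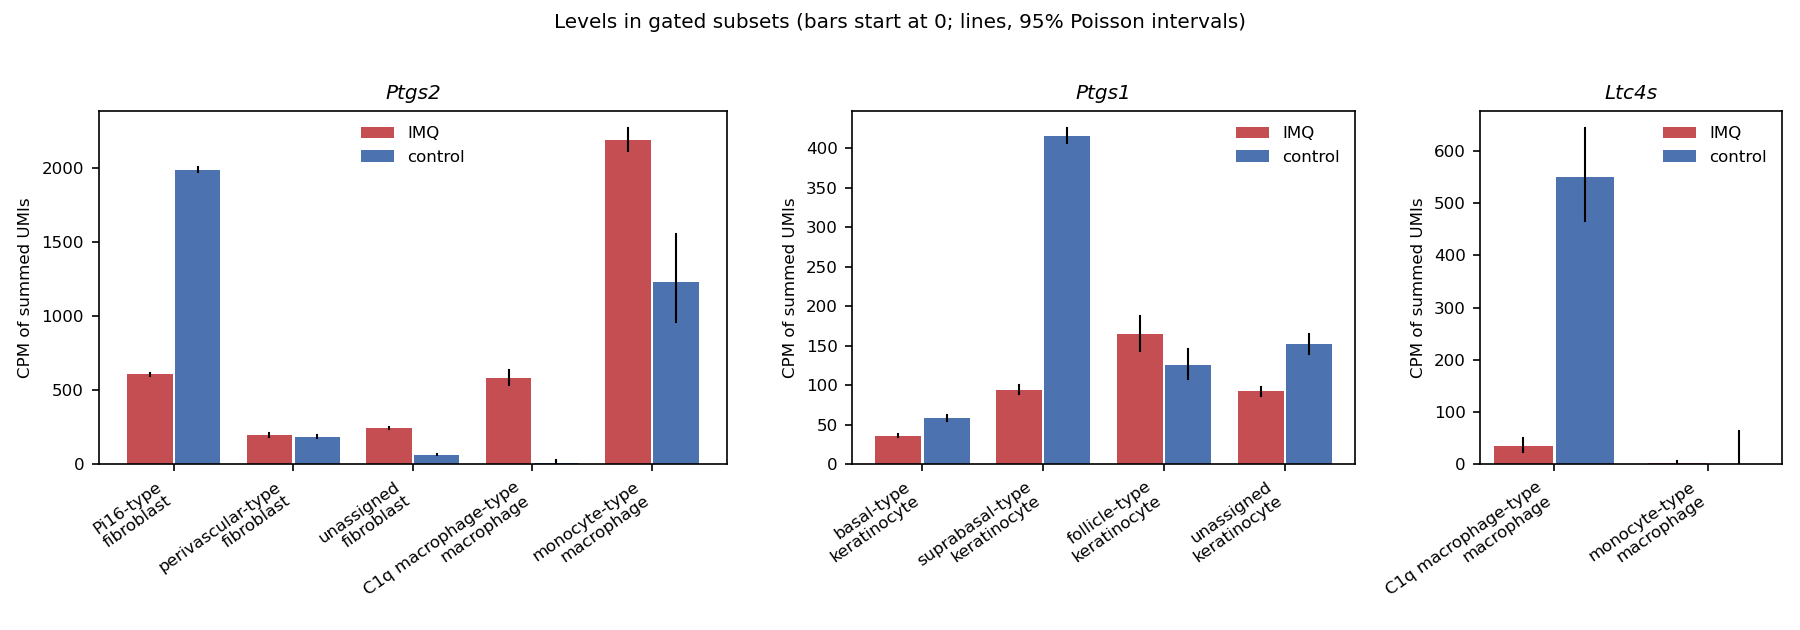
Levels (CPM of summed UMIs, linear axes from 0, black lines as 95% Poisson intervals) of Ptgs2 in fibroblast and macrophage subsets, Ptgs1 in keratinocyte subsets and Ltc4s in macrophage subsets, with IMQ in red left of control in blue. Ptgs2 in Pi16-type fibroblasts is at 609 CPM in IMQ and 1990 CPM in control cells, and Ptgs1 in suprabasal-type keratinocytes at 94.5 CPM in IMQ and 416 CPM in control cells.

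Keratinocytes had 44.2 CPM of Ptgs2 on 2949 UMIs in IMQ and 77.2 CPM on 2842 UMIs in control cells, a ratio of 0.572 (0.543 to 0.602). In the shared keratinocyte clusters the log2 ratio was 0.60, against -0.81 in the whole lineage, so no direction is drawn. Ptgs2 in the smaller lineages rested on few cells. Dendritic and Langerhans cells had 766 CPM on 474 UMIs in 50 IMQ cells and 224 CPM on 98 UMIs in 43 control cells, a ratio of 3.41 (2.74 to 4.29). The log2 ratio of 1.77 became 2.58 without the top cell of each library. It became 1.21 without barcodes holding 3 or more UMIs of Cd207, a Langerhans cell marker. Those barcodes held 38.8% of the IMQ Ptgs2 UMIs of this gate. T and NK lymphocytes had 78.1 CPM in IMQ and 23.9 CPM in control cells, a ratio of 3.28 (2.10 to 5.35), but a log2 ratio of 0.01 when lineages were taken from clusters. In pericytes and smooth muscle cells 34 of 39 IMQ UMIs came from 1 cell, against 3 UMIs in control cells, and without the top cells the log2 ratio was 0.75 in place of 3.11. In lymphatic endothelial cells 0 UMIs were found in IMQ and 21 in control cells, 19 of them in 1 cell. In blood endothelial cells 19 UMIs in IMQ and 16 in control cells, 15 of these 16 in 1 cell, gave a log2 ratio of -2.59, which turned to 0.25 without the top cells. No direction is drawn from these 3 vascular lineages.

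Ptgs1, the constitutive cyclooxygenase (chromosome 2, 36230426 to 36252272, plus strand), was lower in IMQ keratinocytes. It stood at 60.2 CPM on 4024 UMIs in 2152 IMQ cells and 242 CPM on 8922 UMIs in 1632 control cells, a ratio of 0.249 (0.239 to 0.258). Suprabasal-type keratinocytes, marked by Krt1 and Krt10, had 94.5 CPM in IMQ and 416 CPM in control cells, and basal-type keratinocytes 36.5 CPM in IMQ and 58.5 CPM in control cells. Follicle-type keratinocytes did not share this order, at 164 CPM in 66 IMQ cells and 126 CPM in 117 control cells. Keratinocytes of the 2 libraries lay in different clusters, most often cluster 11 for IMQ (49.0%) and cluster 13 for control (32.8%). Shared clusters held 75.6% of IMQ but 7.29% of control keratinocytes, and there the log2 ratio was 0.96 in place of -2.01, so the lower level was not seen where cells of both libraries clustered together. Cluster 11, the larger shared one, had 61.4 CPM in 1054 IMQ cells and 38.5 CPM in 64 control cells. Cluster 34, with 0 IMQ cells and 296 control cells, had 520 CPM.

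Blood endothelial cells, where it makes the precursor of prostacyclin, had 71.9 CPM in IMQ and 75.1 CPM in control cells, a ratio of 0.958 (0.637 to 1.49), but a log2 ratio of 1.60 in the shared clusters and 1.59 with lineages from clusters, past 2-fold, against -0.06. Macrophages and monocytes had 14 UMIs at 5.57 CPM in IMQ and 16 UMIs at 40.5 CPM in control cells and were called lower, though not without a gate margin, where the log2 ratio was -0.71. In fibroblasts it was at 8.28 CPM in IMQ and 8.98 CPM in control cells. Free RNA, estimated from markers of other lineages, could have given 9.35 CPM in control fibroblasts, and with it subtracted almost none was left there. Pi16-type fibroblasts had 9.37 CPM in IMQ and 20.4 CPM in control cells, and perivascular-type fibroblasts 13.3 CPM on 83 UMIs in IMQ and 2.70 CPM on 19 UMIs in control cells.

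Ptges, the inducible prostaglandin E2 synthase (chromosome 2, 30889471 to 30929863, minus strand), was found mainly in fibroblasts and keratinocytes. Fibroblasts had 65.5 CPM in IMQ and 38.9 CPM in control cells, a ratio of 1.68 (1.60 to 1.77), with a log2 ratio of 0.14 in the shared clusters, against 0.75. Fibroblasts given to no subset passed 2-fold, with 66.8 CPM in IMQ and 28.0 CPM in control cells and a ratio of 2.38 (2.20 to 2.58). Keratinocytes had 63.2 CPM in IMQ and 65.4 CPM in control cells, a ratio of 0.966 (0.919 to 1.02), but a log2 ratio of 1.48 in the shared clusters, past 2-fold, against -0.05. Pericytes and smooth muscle cells had 12.5 CPM on 23 UMIs in IMQ and 13.1 CPM on 16 UMIs in control cells. In macrophages and monocytes 2 UMIs were found in 411 IMQ cells, at 0.795 CPM, below the 0.994 CPM that free RNA could have given. Among fibroblasts thinned to 2000 UMIs, 12.9% (10.9% to 15.1%) of IMQ cells with Ptgs2 and 11.6% (10.4% to 12.95%) of the other IMQ cells held Ptges. In control fibroblasts the shares were 10.9% (9.63% to 12.3%) of cells with Ptgs2 and 6.27% (5.575% to 7.01%) of the rest.

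Hpgds, the haematopoietic prostaglandin D2 synthase (chromosome 6, 65117293 to 65144908, minus strand), was lower in IMQ keratinocytes, which held most of it. They had 12.7 CPM in IMQ and 46.0 CPM in control cells, a ratio of 0.275 (0.253 to 0.299). In the shared clusters the log2 ratio was -0.49, against -1.86 in the whole lineage. Suprabasal-type cells had 37.0 CPM in IMQ and 79.9 CPM in control cells. Follicle-type cells stood apart, with 48 UMIs in 66 IMQ cells and 0 UMIs in 117 control cells, a level at least 16.8-fold higher in IMQ against a floor of 3 counts. The alternative settings were not run for subsets, and how many of these cells held the 48 UMIs was not counted. In mast cells, a known site of prostaglandin D2 synthesis, Hpgds had the highest level of the compared lineages, with 356 CPM on 27 UMIs in IMQ and 237 CPM on 10 UMIs in control cells, a ratio of 1.502 (0.705 to 3.48). Macrophages and monocytes had 43.3 CPM in IMQ and 78.5 CPM in control cells, a ratio of 0.552 (0.368 to 0.852). That ratio passed 2-fold with the wider gate margin (log2 ratio -1.05) and with lineages from clusters (-1.07). C1q macrophages held 91.7% of the lineage's Hpgds UMIs in the IMQ and 83.9% in the control library. They were not lower, with 120 CPM in IMQ and 93.4 CPM in control cells, a ratio of 1.29 (0.831 to 2.07). Fibroblasts had 0.308 CPM on 16 UMIs in IMQ and 0.381 CPM on 27 UMIs in control cells. T and NK lymphocytes were called lower at 10.6 CPM in IMQ and 22.8 CPM in control cells, on 26 and 21 UMIs, and this was lost under 4 alternatives, with a log2 ratio of -0.23 when lineages were taken from clusters, against -1.11. Among control keratinocytes 51.8% of those with Hpgds after thinning also held Ptgs1, against 25.3% of the rest.

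Of the receptors, Ptger4 (chromosome 15, 5206661 to 5244187, minus strand), the EP4 receptor that raises cyclic AMP, was lower in 4 lineages and higher in none. Keratinocytes had 20.7 CPM in IMQ and 57.9 CPM in control cells, a ratio of 0.358 (0.334 to 0.383). Basal-type keratinocytes had 23.6 CPM in IMQ and 83.9 CPM in control cells. In the shared keratinocyte clusters the log2 ratio was -0.26 in place of -1.48. T and NK lymphocytes had 35.8 CPM in IMQ and 85.7 CPM in control cells, a ratio of 0.418 (0.305 to 0.574). Blood endothelial cells had 10.9 CPM in IMQ and 33.4 CPM in control cells, and pericytes and smooth muscle cells 7.08 CPM in IMQ and 21.3 CPM in control cells. The call in T and NK lymphocytes held under all 13 alternatives, and those in the other two under all but the minimum of 100 UMIs, as they rest on 28 and 13 UMIs in IMQ and 12 and 26 UMIs in control cells. Fibroblasts, at 16.6 CPM in IMQ and 16.0 CPM in control cells, had a ratio of 1.04 (0.9496 to 1.136). Macrophages and monocytes had a ratio of 1.05 (0.705 to 1.60). Dendritic and Langerhans cells missed 2-fold with 105 CPM in IMQ and 52.7 CPM in control cells, a ratio of 1.99 (1.22 to 3.36). Muscle cells had 58.2 CPM on 16 UMIs in IMQ and 28.9 CPM on 12 UMIs in control cells, a ratio of 2.02 (0.894 to 4.67) whose interval held equality.

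Ptger2 (chromosome 14, 44988195 to 45003820, plus strand), the EP2 receptor, also linked to cyclic AMP, was rare in both libraries, with 154 UMIs in IMQ and 27 UMIs in control cells. Macrophages and monocytes held the highest measured level, with 22.3 CPM on 56 UMIs in IMQ and 15.2 CPM on 6 UMIs in control cells, a ratio of 1.47 (0.633 to 4.17). Keratinocytes were called higher at 0.779 CPM on 52 UMIs in IMQ and 0.190 CPM on 7 UMIs in control cells. That log2 ratio of 2.03 became -0.50 in the shared clusters.

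Hpgd (chromosome 8, 56294585 to 56321043, plus strand), the dehydrogenase that inactivates prostaglandins, was mainly a fibroblast gene. Fibroblasts held 81.1% of its UMIs in the IMQ and 91.9% in the control library. They had 111.5 CPM in IMQ and 167 CPM in control cells, a ratio of 0.668 (0.647 to 0.689), but in the shared clusters the log2 ratio was 0.27, against -0.58, so no direction is drawn for the lineage. Subsets differed. Perivascular-type fibroblasts were lower, with 75.9 CPM in IMQ and 169 CPM in control cells and a ratio of 0.449 (0.402 to 0.499). Fibroblasts given to no subset had 121 CPM in IMQ and 215 CPM in control cells, a ratio of 0.565 (0.5405 to 0.590), and Pi16-type cells 119 CPM in IMQ and 88.8 CPM in control cells. Clusters 28 and 30, with 16 and 4 IMQ cells and 1140 and 1995 control cells, held control levels of 241 and 237 CPM. In control fibroblasts cells with Ptgs2 held Hpgd less often than the rest, at 10.9% (9.63% to 12.3%) against 26.0% (24.7% to 27.3%) after thinning. In IMQ fibroblasts the shares were 13.6% (11.5% to 15.8%) and 14.9% (13.5% to 16.3%). Macrophages and monocytes were lower, with 31.0 CPM in IMQ and 91.1 CPM in control cells and a ratio of 0.340 (0.227 to 0.520), but C1q macrophages alone had a ratio of 0.693 (0.441 to 1.11). Pericytes and smooth muscle cells had 46.8 CPM in IMQ and 44.2 CPM in control cells. Keratinocytes had 12.5 CPM in IMQ and 15.9 CPM in control cells, with a log2 ratio of -1.07 in the shared clusters, against -0.34. Keratinocyte layers differed in sign, as suprabasal-type cells had 15.8 CPM in IMQ and 5.51 CPM in control cells and basal-type cells 12.04 CPM in IMQ and 29.9 CPM in control cells. Free RNA could have given 1.80 CPM in IMQ and 7.30 CPM in control keratinocytes, above the suprabasal-type control level. With it subtracted the log2 ratio of the whole lineage was 0.33, against -0.34, so no direction is drawn for suprabasal-type cells.

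Alox5ap (chromosome 5, 149264767 to 149288153, plus strand), the 5-lipoxygenase activating protein, was a gene of myeloid cells in both libraries. Neutrophils had 2317 CPM on 2084 UMIs in 271 IMQ cells, and their 5 control cells had 14 UMIs. Basophils had 2126 CPM in 49 IMQ cells and 2109 CPM in 3 control cells. Macrophages and monocytes had 1441 CPM in IMQ and 784 CPM in control cells, a ratio of 1.84 (1.64 to 2.07) that missed 2-fold. Within them C1q macrophages had a ratio of 1.29 and monocytes 1.20. Dendritic and Langerhans cells had 695 CPM in IMQ and 604 CPM in control cells, a ratio of 1.15 (0.984 to 1.34). Without neutrophils the whole libraries stood at 42.1 CPM in IMQ and 9.08 CPM in control cells. Fibroblasts were called higher at 4.12 CPM in IMQ and 1.86 CPM in control cells, but free RNA could have given 2.22 CPM in IMQ and 1.03 CPM in control cells, and the call was lost without the marked doublets at a log2 ratio of 0.64. Keratinocytes had 3.25 CPM in IMQ and 3.07 CPM in control cells, with a log2 ratio of 1.78 without barcodes that held Cd207, a Langerhans cell marker, and -0.98 with free RNA subtracted, against 0.08. Of 92 IMQ fibroblasts with the gene, 20.7% held Ptprc, the leukocyte marker CD45, against 1.13% of the other IMQ fibroblasts.

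Alox5 (chromosome 6, 116410077 to 116461178, minus strand), which makes leukotriene A4, was measured on 172 UMIs in IMQ and 72 UMIs in control cells. Macrophages and monocytes were lower, at 11.9 CPM on 30 UMIs in IMQ and 58.2 CPM on 23 UMIs in control cells, a ratio of 0.205 (0.115 to 0.369), on fewer than the 100 UMIs that the stricter minimum asks for. In C1q macrophages alone 22 UMIs were found in each library, at 26.5 CPM in IMQ and 79.0 CPM in control cells. Dendritic and Langerhans cells had 42.0 CPM in IMQ and 25.2 CPM in control cells, a ratio of 1.67 (0.796 to 3.74). The Cd207 barcodes held all 26 IMQ UMIs and 0 control UMIs of Alox5 in this gate. Without these barcodes the log2 ratio, 0.74 with them, became a bound of -2.23 from the floor of 3 counts. Too few UMIs were then left to count as measured, so no direction is drawn from that bound. IMQ neutrophils had 37.8 CPM and IMQ basophils 126 CPM, while the few control cells of both lineages had 0 UMIs. After thinning, all 16 IMQ neutrophils with Alox5 also held Alox5ap, as did 92.5% of the other IMQ neutrophils.

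Ltc4s, leukotriene C4 synthase (chromosome 11, 50236461 to 50238616, minus strand), had close levels over all kept cells but sat in different cells. It was at 2.55 CPM on 361 UMIs in IMQ and 2.35 CPM on 286 UMIs in control cells. In macrophages and monocytes it was at 13.9 CPM on 35 UMIs in IMQ and 392 CPM on 155 UMIs in control cells, a ratio of 0.0355 (0.0239 to 0.0515). The difference held within C1q macrophages, with 34.9 CPM in 98 IMQ cells and 549 CPM in 60 control cells and a ratio of 0.0636 (0.0412 to 0.0950). After thinning, 2.65% of IMQ and 38.6% of control macrophages and monocytes held a UMI, and 4.14% of IMQ and 43.2% of control cells did without thinning. The direction and the call held under all 13 alternatives, with a log2 ratio of -3.53 without a gate margin, against -4.82. Lymphatic endothelial cells had 31 UMIs in 20 of 80 IMQ cells and 0 UMIs in 31 control cells, at least 3.48-fold higher in IMQ against the floor, though this was lost with the wider gate margin and rests on under 100 UMIs. Blood endothelial cells had 34 UMIs in 149 IMQ cells and 0 UMIs in 44 control cells, a bound of 1.58-fold that stayed under 2-fold. Fibroblasts had 0.462 CPM on 24 UMIs in IMQ and 0.423 CPM on 30 UMIs in control cells, a ratio of 1.09 (0.611 to 1.93).

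Dendritic and Langerhans cells showed the widest ratios, for Ltc4s, Hpgds and Ptgs1, and these rested on a small set of barcodes with Cd207, the Langerhans cell lectin langerin. Ltc4s had 112 UMIs in 50 IMQ cells and 1 UMI in 43 control cells, Hpgds 104 UMIs in IMQ and 2 UMIs in control cells, and Ptgs1 78 UMIs in IMQ and 4 UMIs in control cells. Barcodes with at least 3 Cd207 UMIs numbered 21 in IMQ and 28 in control cells. In the IMQ library 9 of the 21 were gated as dendritic and Langerhans cells, 8 were ungated and 4 were macrophages and monocytes. Those 9 held 80.4% of the Ltc4s, 92.3% of the Hpgds and 98.7% of the Ptgs1 UMIs of the 50 gated IMQ dendritic and Langerhans cells. In the control library 7 of the 28 were dendritic and Langerhans cells and 17 were gated as keratinocytes, and all 17 also held at least 10 Krt14 UMIs. These 17 had a median of 47490 UMIs, against 16970 in all control keratinocytes, and Scrublet marked 1 of them. They held 75 of the 83 Ltc4s UMIs and 19 of the 23 Alox5 UMIs of control keratinocytes.

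Over all Cd207 barcodes, 19 of 21 IMQ and 21 of 28 control barcodes held Ltc4s. The 8 ungated IMQ barcodes had 66 Ltc4s UMIs at 612 CPM, and the 2 ungated control barcodes had 10 at 782 CPM. The Cd207 barcodes held all control UMIs of Ltc4s and Hpgds in dendritic and Langerhans cells. Without these barcodes the log2 ratio there was at least 2.51 for Ltc4s, against the floor of 3 counts, in place of 6.30. For Hpgds the floor gave a bound of 1.06 in place of 5.20. Too few Hpgds UMIs were left to count as measured, so its call could not be kept. Ptgs1 could no longer be measured either. In keratinocytes without the Cd207 barcodes Ltc4s was at -2.31 in place of -5.65 and Alox5 at -0.09 in place of -2.58. Both genes then had too few UMIs there to count as measured, so neither could be called at any ratio. The dendritic and Langerhans call for Ltc4s was kept, as a bound, and no direction is drawn from the keratinocyte values. The part of the gating in these ratios was not tested further.

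**Figure D5:**
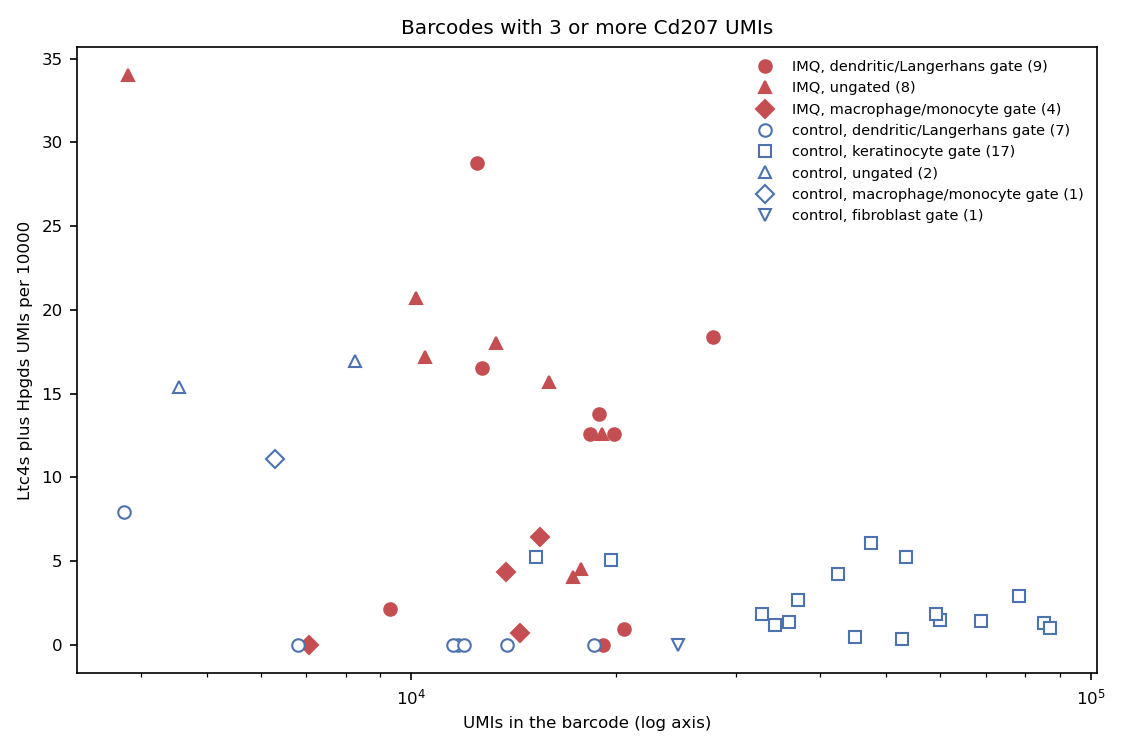
Ltc4s plus Hpgds UMIs scaled to equal barcode depth (linear axis) against UMIs per barcode (log axis) for each barcode with 3 or more Cd207 UMIs, with filled red marks for IMQ and open blue marks for control and the shape giving the gate. The 17 control barcodes in the keratinocyte gate lie mostly to the right, at a median of 47490 UMIs, and the 9 IMQ barcodes in the dendritic and Langerhans gate have a median of 18860 UMIs.

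Other genes of the pathway were read from 7 lists holding 51 genes. The 13 alternatives were run for the 10 genes only, so the list genes were not checked in shared clusters. Those clusters held 7.29% of control keratinocytes, and some keratinocyte calls of the 10 genes were lost there. Of the phospholipases that release arachidonate, 3 were higher and 5 lower of 11 measured in keratinocytes, and 1 was higher and 3 lower of 9 in fibroblasts. Shares over all measured genes, for these and later counts, were 11.3% higher and 11.6% lower in keratinocytes. In fibroblasts they were 11.4% higher and 4.77% lower. Pla2g2f, a secreted epidermal phospholipase, was at 75.8 CPM in IMQ and 240 CPM in control keratinocytes, and cytosolic Pla2g4a at 23.2 CPM in IMQ and 49.96 CPM in control keratinocytes. In fibroblasts Pla2g2e was at 19.8 CPM in IMQ and 48.3 CPM in control cells, and in macrophages and monocytes the lysosomal Pla2g15 was at 34.6 CPM in IMQ and 73.4 CPM in control cells. The other prostanoid synthases gave 0 higher and 2 lower of 5 in macrophages and monocytes, against 5.71% higher and 9.72% lower over all measured genes. The 2 included Tbxas1, the thromboxane synthase, at 21.9 CPM in IMQ and 58.2 CPM in control cells. The other was Fam213b, a prostamide and prostaglandin F synthase, at 55.7 CPM in IMQ and 116 CPM in control cells. Tbxas1 in dendritic and Langerhans cells was higher, on 17 UMIs in IMQ and 3 UMIs in control cells. In keratinocytes 1 synthase was higher and 2 lower of 7, with Fam213b at 38.7 CPM in IMQ and 120 CPM in control cells. Cbr1, a carbonyl reductase, was lower in T and NK lymphocytes, at 13.4 CPM in IMQ and 44.5 CPM in control cells, and Ptges3, a prostaglandin E synthase and co-chaperone, was lower in mast cells on 10 UMIs in IMQ and 14 UMIs in control cells. Of the other prostanoid receptors, 3 of 5 measured in fibroblasts were higher and 0 lower, and 0 of 5 in keratinocytes were higher and 2 lower, at levels under 20 CPM. The thromboxane receptor Tbxa2r was higher in pericytes and smooth muscle cells, at 41.9 CPM in IMQ and 15.5 CPM in control cells. Of the transport and breakdown genes, the exporter Abcc4 was lower in fibroblasts, at 14.96 CPM in IMQ and 45.1 CPM in control cells, and the reductase Ptgr1 was higher there, at 26.9 CPM in IMQ and 12.3 CPM in control cells. Ptgr1 was also higher in Schwann cells, on 27 UMIs in IMQ and 5 UMIs in control cells. The uptake carrier Slco2a1 had 26 UMIs in IMQ and 0 UMIs in control lymphatic endothelial cells, at least 2.92-fold higher.

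Of the other leukotriene enzymes, 3 of 7 measured in fibroblasts were higher and 0 lower, against 11.4% higher and 4.77% lower over all measured genes. Ggt5, which converts leukotriene C4 to leukotriene D4, was at 60.0 CPM on 3118 UMIs in IMQ and 9.11 CPM on 646 UMIs in control fibroblasts, a ratio of 6.59 (6.05 to 7.19). It was also higher in pericytes and smooth muscle cells, at 26.1 CPM in IMQ and 11.5 CPM in control cells. Mgst3, a microsomal glutathione transferase, was at 73.3 CPM in IMQ and 21.4 CPM in control fibroblasts. In keratinocytes its relative Mgst2, which can also form leukotriene C4, was at 66.2 CPM in IMQ and 25.6 CPM in control cells. In blood endothelial cells Lta4h, the leukotriene A4 hydrolase, had 108 UMIs at 42.0 CPM in IMQ and 4 UMIs at 11.1 CPM in control cells. The leukotriene B4 receptor Ltb4r1 was higher in macrophages and monocytes, at 98.2 CPM in IMQ and 27.8 CPM in control cells, and in T and NK lymphocytes, at 94.0 CPM in IMQ and 26.0 CPM in control cells. Cysltr1, a receptor for cysteinyl leukotrienes, was at 24.0 CPM in IMQ and 11.9 CPM in control T and NK lymphocytes. Of the other lipoxygenases measured in keratinocytes, 1 was higher and 4 lower of 5, against 11.3% higher and 11.6% lower over all measured genes. Among the lower ones Aloxe3, which acts in forming the skin barrier, had a ratio of 0.129, and its partner Alox12b a ratio of 0.217.

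Levels were compared over the 26 sums of a lineage in a library with at least 30 cells, as log2(CPM + 1), which share libraries and differ in depth. Alox5 was most like Btk (Pearson r = 0.99), followed by Rgs18 and Lilr4b (both 0.94), and Alox5ap was most like Cfp (0.94), Nfam1 and Cd300a (both 0.93). Ptgs2 was most like Plac8 (0.81), Il1r2 (0.77) and Ltb4r1 (0.74), and Hpgds like Ap1s3 (0.83), Gm13251 (0.80) and Clec10a (0.79). Ltc4s was most like Cd40 (0.78), Kif9 and C1qa (both 0.75), and Ptgs1 like Dnaaf3 (0.80), Tspan8 (0.77) and Lsr (0.73). Ptges was most like Egfros (0.86), Irx1 and Figf (both 0.83), Ptger4 like Abracl (0.81), Fgfr1op (0.70) and Ube2q2 (0.69), and Hpgd like Rspo1 (0.74), Zfp11 and Abca9 (both 0.71). The closest to Ptger2 were the predicted genes Gm28707 (0.80), Gm26778 (0.78) and Gm10642 (0.76). Il1r2, C1qa and Plac8 were among the lineage or subset markers. Among the 10 genes the closest pair was Alox5 with Alox5ap (0.78), while Ptgs2 and Ptges were unrelated in this measure (-0.02).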

How the data were processed

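Raw UMI counts per gene and barcode were used as deposited by the authors. The software named per the file headers is Cell Ranger 5.0.0. The submitters' processing notes list mm10 as build and, as tools, Seurat 2.0 and Cell Ranger 3.0.2. No source used here gives strand handling, annotation or cell calling settings, and every listed barcode had at least 500 UMIs. The libraries held 144054978 UMIs (IMQ) and 123088680 UMIs (control).

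The 10 genes, the marker and pathway lists and the alternatives were chosen with earlier results of these data known. Cells with at least 200 genes and at most 10% mitochondrial UMIs were kept. Each lineage was scored by the mean of its 4 highest markers, each scaled to its 99.9th percentile, and a cell needed a score of 0.4, a margin of 0.1 over the next lineage and 3 detected markers. The margin was set on cell numbers after the files were seen. Of 128 markers 3 were not found. Subsets needed a score of 0.25 and 2 markers. Leiden clusters (scanpy 1.11.5) served as a check and left out the 10 genes. Doublets were marked with Scrublet and kept, and the marked shares (1.29% of IMQ and 4.10% of control cells) were below the rate expected at this loading, so doublets may remain. UMIs were summed per lineage and library and scaled to CPM. Poisson, binomial and conditional binomial intervals were exact at 95% (scipy 1.17.1), and a ratio against 0 used a floor of 3 counts. Free RNA was the median, over markers of other lineages, of lineage CPM over library CPM, times the gene's library CPM, and it is a high estimate, since Hpgds in control fibroblasts (0.381 CPM) fell below it (1.70 CPM). The fold rule was also run on simulated counts that held counting error only. They had no variation between animals or libraries, so that error could not be judged from them. The rule named all 10 genes in every compared lineage, of which pairs under 20 UMIs appear mainly in the plot of levels, and of the other lists genes past the fold rule at 20 CPM or more, up to the 2 most extreme per list and lineage, with a few rows given as counts only. The Cd207 barcodes, single clusters and immediate early genes were chosen after their values were seen. Positions are from GENCODE M21 on GRCm38, matched by gene ID.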

Additional observations from a re-analysis of the deposited data

Results flagged for a closer look

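For some genes the log2 ratios had opposite signs in 2 lineages. None of these differences was tested, and several rest on the Cd207 barcodes or on single cells. The log2 ratio of IMQ over control for Ptgs1 was 3.78 in dendritic and Langerhans cells and -2.86 in macrophages and monocytes. For Hpgds it was 5.20 in dendritic and Langerhans cells and -1.86 in keratinocytes, and for Ltc4s 6.30 in dendritic and Langerhans cells and -5.65 in keratinocytes. For Ptgs2 it was 3.11 in pericytes and smooth muscle cells and -4.38, a bound, in lymphatic endothelial cells, where 34 of 39 IMQ UMIs and 19 of 21 control UMIs came from 1 cell each and no direction is drawn. In the barcodes left out by the filters Alox5ap had 63 UMIs in IMQ and 1 UMI in control, a log2 ratio of 5.09.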

How the results depend on the processing

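Of the 25 calls for a gene in a lineage, 6 held under all 13 alternatives and 19 were lost under at least 1, of which 3 were lost at the minimum of 100 UMIs alone. Requiring 100 UMIs left 6 pairs higher and 6 lower, and the 1.5-fold rule left 4 genes lower over all kept cells. Ptgs2 in blood endothelial cells turned to a log2 ratio of 1.36 without marked doublets, 0.84 with the wider gate margin, 3.92 with lineages from clusters, 0.25 without the top cells and 0.64 in shared clusters. Ptgs2 in pericytes and smooth muscle cells turned to -1.10 with lineages from clusters. In shared keratinocyte clusters Ptgs1 turned to 0.96 and Ptger2 to -0.50. The shared-cluster and Cd207 alternatives were added after seeing the data. After thinning, the difference in the share of cells with a UMI, IMQ minus control, changed sign for 4 of 10 genes over all cells (-2.32 points for Ptgs1, -4.03 for Ptgs2, -1.42 for Ptger4 and -0.38 for Hpgds) and for 8 of the 49 measured pairs, among them Ptgs2 in blood endothelial cells (-4.20 points) and in fibroblasts (-2.90 points). The causes were not tested. No paired analysis was possible because each group had 1 library. Lineages with 30 to 80 cells limit what depth could show, and replicate error is unknown.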
